A study of Homo sapiens with 16 samples.

Results

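The genes described here were 7 matrix metalloproteinase genes (MMP1, MMP2, MMP3, MMP9, MMP10, MMP13 and MMP14) and 3 genes for tissue inhibitors of metalloproteinases (TIMP1, TIMP2 and TIMP3), 10 of the 59081 genes in the table, chosen by gene symbol. All 10 passed the filter on low counts and were among the 20446 genes tested. They were measured by RNA sequencing in U2OS cells, a human osteosarcoma line. The study asked whether blocking the kinase DYRK1A, which helps to assemble the DREAM repressor complex in resting cells, changes gene expression, and it used harmine (a beta-carboline alkaloid) and INDY (a benzothiazole), both of which inhibit this kinase.

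There were 4 groups of 4 libraries each. Confluent cells of every group were kept without serum for 48 h before extraction, so the mock-treated cells shared this with the treated cells. For the last 24 h they received harmine hydrochloride at 10 µM, water as its vehicle, INDY at 25 µM, or DMSO as its vehicle. The doses and vehicles of the compounds therefore differed, and no control library was shared between them.

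Matrix metalloproteinases are zinc-dependent enzymes that cut collagens, gelatins, fibronectin, proteoglycans and other proteins outside the cell, and most are made as inactive precursors that another protease has to cut. TIMPs are small secreted proteins that bind the active site of these enzymes. TIMP2 has a further role, since together with MMP14 on the cell surface it takes part in the activation of the MMP2 precursor. In bone, MMP13 and MMP14 are known for matrix turnover, and MMP9 for its role in osteoclasts and growth plate vessels.

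Library totals lay between 44301642 and 65889487 rounded counts. Water libraries 1 and 4 lay apart from 2 and 3 on the third principal component (26.6 and 34.6 against 4.35 and 3.94), as INDY libraries 1 and 3 did from 2 and 4 (8.14 and 13.2 against -11.6 and -14.8). Values without them are given where they lose a call or turn a direction, and for only some of the values that moved. Other values moved and kept their calls. The log2 fold change with harmine went from -0.40 to -0.52 for MMP1 and from 0.90 to 0.67 for FN1 without these water libraries. With INDY, that of PLAU went from -0.93 to -0.72 without these INDY libraries. Of 9 osteoblast markers, 5 (COL1A1, SPARC, RUNX2, ALPL and SPP1) reached a mean of 1 CPM (counts scaled to the library total) in each group, while SP7, IBSP, BGLAP and COL1A2 stayed below 1 CPM. Of 7 blood cell markers, PTPRC, LYZ and AIF1 were below 1 CPM in each group, CD14 reached a mean of 1 CPM with INDY alone, and ITGAM, CD68 and CSF1R were above it in each group (35.5, 12.4 and 4.76 CPM with water). Summed osteoblast markers lay at 860 to 949 CPM in water, 1105 to 1143 CPM in harmine, 824 to 904 CPM in DMSO and 584 to 695 CPM in INDY libraries, and their part in the results was not tested. SPARC made up most of this sum and rose with harmine (696 to 938 CPM), as RUNX2 did (33.1 to 49.5 CPM), while COL1A1 (157 to 125 CPM), ALPL (21.0 to 16.5 CPM) and SPP1 (2.26 to 1.28 CPM) were lower. Summed epithelial markers lay between 568 and 672 CPM, chondrocyte markers between 81.7 and 118 CPM and endothelial markers between 2.81 and 7.94 CPM in all libraries. The keratin genes KRT8 and KRT18 made up nearly all of the epithelial sum, while EPCAM was at 3.86 CPM with water and CDH1 and KRT19 stayed below 1 CPM. SOX9 made up most of the chondrocyte sum, while ACAN was at 8.42 CPM with water and COL2A1 and COL9A1 stayed below 1 CPM.

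With harmine, 4 of the 10 genes were higher (MMP2, MMP3, MMP14 and TIMP2) and 5 lower (MMP1, MMP9, MMP10, MMP13 and TIMP1) at an adjusted p under 0.01, where 47.7% of all genes tested were called in either direction, 24.9% higher and 22.8% lower. With INDY, 2 were higher (MMP10 and TIMP1) and 5 lower (MMP1, MMP2, MMP13, MMP14 and TIMP2), where 66.6% of all genes were called, 33.2% higher and 33.4% lower. The median log2 fold change of the 10 genes was -0.06 with harmine and -0.25 with INDY, and that of all genes tested was 0.02 and -0.01. In each of these calls the libraries of the 2 groups did not overlap, which held for 55.1% of all genes with harmine (28.6% above and 26.4% below) and 67.5% with INDY (33.4% above and 34.1% below). Calls of at least 1.5-fold were fewer, with TIMP1 alone lower with harmine (16.3% of all genes), and with INDY MMP10 and TIMP1 higher and MMP13, MMP14 and TIMP2 lower (33.7% of all genes). In these bulk libraries, a change in how many cells make an mRNA and a change in the amount per cell cannot be told apart.

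**Figure D1:**
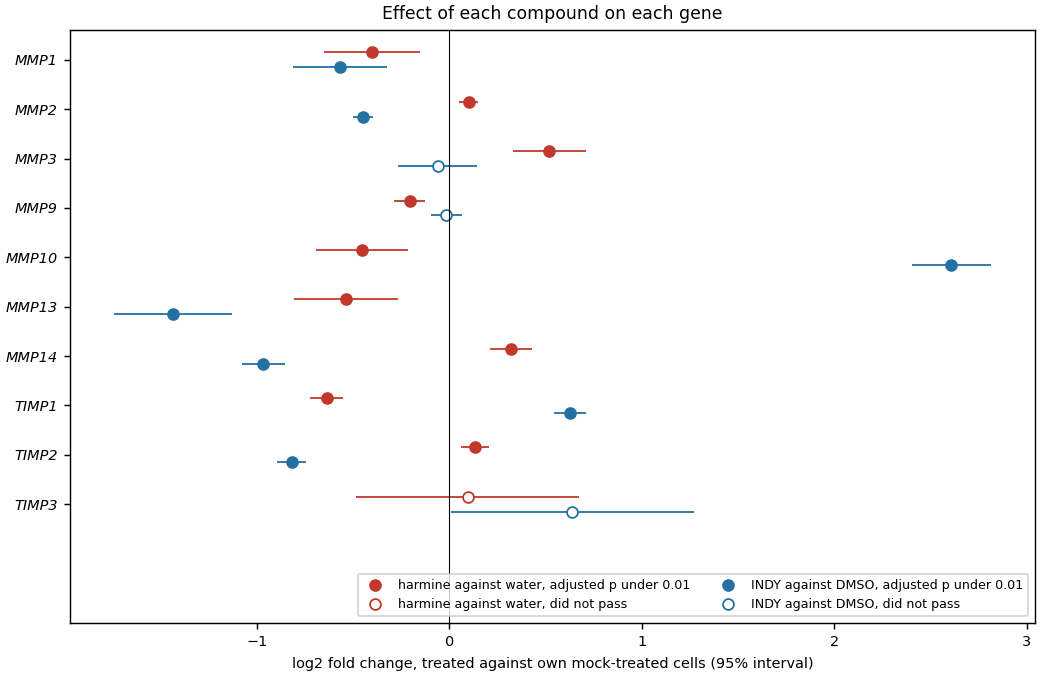
Log2 fold change of each gene (x axis) with its 95% interval for harmine against water (red) and INDY against DMSO (blue), with filled points where the adjusted p was under 0.01 and open points otherwise. MMP10 stands furthest to the right with INDY (2.61), and MMP2, MMP14 and TIMP2 lie right of 0 with harmine and left of 0 with INDY, while TIMP1 and MMP10 lie the other way round.

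MMP10 and TIMP1 were the pair called lower with harmine and higher with INDY, so the letters just upstream of their starts are shown. RefSeq promoter windows (GRCh38.p14) were at hand for 4 of the 10 genes (MMP10, MMP14, TIMP1 and TIMP3). The stretch of MMP10 is chr11:102780629-102780778 on the minus strand, and that of TIMP1 is chrX:47582286-47582435 on the plus strand, each being the 150 bases before the RefSeq start. The RefSeq start of TIMP1 lies inside the first exon of its GENCODE model. Capitals mark exact matches of the motifs searched.
MMP10: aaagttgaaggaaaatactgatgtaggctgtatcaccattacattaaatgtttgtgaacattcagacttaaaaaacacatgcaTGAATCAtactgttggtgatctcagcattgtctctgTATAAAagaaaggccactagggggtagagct
TIMP1: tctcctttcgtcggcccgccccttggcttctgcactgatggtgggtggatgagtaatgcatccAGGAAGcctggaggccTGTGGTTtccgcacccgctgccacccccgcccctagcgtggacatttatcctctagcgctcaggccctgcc

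The letters searched, on both strands, were TGANTCA for AP-1 (which reads as the same pattern on either strand), TGACGTC for the CRE core, TATAAA for the TATA box, AGGAAG for ETS factors, the 10-letter NF-kB motif, TTTCCCG and TTTGGCG for E2F, and TGTGGTT for RUNX factors. None of these overlapped another in the stretches shown. In MMP10, TGAATCA stood from position -67 to -61 and TATAAA from -31 to -26. Of 35116 RefSeq windows, each running from 250 bases before to 50 after a start and so longer than the 150 bases printed, 7.71% held the AP-1 letters and 11.5% the TATA box letters. In TIMP1, AGGAAG began at position -87 and TGTGGTT at -71, letters found in 33.6% and 4.27% of windows. Near matches were not searched, so tgagtaa in the TIMP1 stretch, which is close to the AP-1 letters, is not marked. The windows of MMP14 and TIMP3 held none of the letters searched, which says nothing about the factors themselves.

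The stromelysins MMP3 and MMP10 cut proteoglycans, fibronectin and laminin and can activate the precursors of other metalloproteinases. Both lie in the metalloproteinase cluster of chromosome 11 with MMP1 between them (MMP10 at chr11:102770502-102780628, MMP3 at chr11:102835801-102843609, both on the minus strand of GRCh38), yet they moved apart. MMP10 was at 1.79, 1.67, 1.99 and 1.83 CPM in DMSO libraries 1 to 4 and at 11.3, 9.52, 13.0 and 10.6 CPM in INDY libraries 1 to 4. Each INDY library lay far above each DMSO library. The fold was 6.09 with a 95% interval of 5.29 to 7.02 (log2 2.61 ± 0.10 SE, adjusted p = 4.42e-14, edgeR's quasi-likelihood test). Without INDY libraries 1 and 3, it was 2.46 on the log2 scale.

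With harmine, MMP10 went from 1.92, 1.68, 1.88 and 1.84 CPM with water to 1.26, 1.28, 1.29 and 1.49 CPM. The groups did not overlap, and the fall was small and rested on 55 to 126 counts per library. MMP10 fell by 0.45 on the log2 scale (SE 0.11, adjusted p = 0.0022). That call was lost with limma voom (adjusted p = 0.0228) and without water libraries 1 and 4 (adjusted p = 0.0202).

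MMP3 was at 6.24, 5.62, 6.59 and 4.98 CPM with water and at 7.51, 8.78, 8.97 and 8.28 CPM with harmine. All harmine libraries were above all water libraries, and the log2 fold change was 0.52 ± 0.09 SE (adjusted p = 7.43e-05). With INDY, the libraries at 4.24, 4.24, 4.09 and 5.15 CPM overlapped those with DMSO at 4.32, 4.81, 4.93 and 4.37 CPM. No change was called there, and the interval of the log2 fold change ran from -0.26 to 0.14 (adjusted p = 0.582). It turned to 0.02 without INDY libraries 1 and 3.

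The collagenases MMP1 and MMP13 open the triple helix of fibrillar collagens. They also lie in the chromosome 11 cluster (MMP1 at chr11:102789401-102798160, MMP13 at chr11:102942995-102955732, minus strand), and they were the only ones of the 10 genes called lower with both compounds. MMP13 was at 1.24, 1.33, 1.52 and 1.16 CPM with water and at 1.03, 0.903, 0.844 and 0.856 CPM with harmine. It was at 0.991, 1.11, 1.08 and 1.05 CPM with DMSO and at 0.360, 0.377, 0.434 and 0.385 CPM with INDY. Treated libraries lay below their own mock-treated libraries in each case. MMP13 fell by 0.54 on the log2 scale with harmine (SE 0.13, adjusted p = 0.00146) and by 1.43 with INDY (SE 0.15, adjusted p = 4.85e-08). Its counts were low, at 18 to 27 per INDY library.

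MMP1 was at 6.63, 7.15, 7.35 and 5.80 CPM with water and at 5.01, 4.85, 5.28 and 5.26 CPM with harmine. It was at 7.46, 9.51, 8.87 and 9.15 CPM with DMSO and at 4.40, 5.65, 6.13 and 7.37 CPM with INDY. The groups did not overlap in either comparison, although INDY library 4 came close to DMSO library 1. MMP1 fell by 0.57 on the log2 scale with INDY (SE 0.12, adjusted p = 0.000212) and by 0.40 with harmine (SE 0.12, adjusted p = 0.00701). The harmine call was lost when any of the harmine libraries, or water library 1, 2 or 3, was left out (adjusted p 0.013 to 0.0248) and held without water library 4 (adjusted p = 0.00331). An exon of MMP1 shares 150 bases with WTAPP1 on the other strand, a pseudogene measured at 0.658 to 2.22 CPM.

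The gelatinases MMP2 and MMP9 cut denatured collagen and basement membrane. MMP2 (chr16:55389700-55506691, plus strand) was at 441, 444, 443 and 459 CPM with water and at 475, 486, 469 and 485 CPM with harmine. The rise was small against the level, with a log2 fold change of 0.10 ± 0.02 SE (adjusted p = 0.00155), and the groups did not overlap. It was not called when no genes were filtered out (0.08, adjusted p = 0.043). With INDY, MMP2 went from 435, 418, 428 and 416 CPM to 313, 307, 317 and 308 CPM. This fall was far larger than the spread within either group, at 0.45 on the log2 scale, or 1.36-fold lower (adjusted p = 6.98e-12).

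MMP9 (chr20:46008908-46016561, plus strand) had the highest level per length of the 7 metalloproteinase genes. It was at 1466, 1481, 1474 and 1529 CPM with water and at 1266, 1295, 1281 and 1317 CPM with harmine. The groups did not overlap, and MMP9 fell by 0.21 on the log2 scale (SE 0.04, adjusted p = 0.000144). With INDY, 1419, 1348, 1414 and 1322 CPM overlapped 1531, 1355, 1369 and 1312 CPM with DMSO. No change was called, with an interval of -0.10 to 0.06 (adjusted p = 0.703), and the sign turned without DMSO library 1 (0.03). MMP9 shares 430 exonic bases with the antisense gene SLC12A5-AS1, which had 1.04 to 2.74 CPM. It is also a gene of blood cells. Of their markers, the integrin gene ITGAM fell with harmine (35.5 to 11.3 CPM) and with INDY (33.0 to 6.33 CPM), and CD68, a lysosomal protein gene, rose with INDY (13.4 to 29.8 CPM). CD14, a co-receptor for bacterial lipopolysaccharide, rose from a mean of 0.0664 CPM with DMSO to as much as 2.26 CPM in an INDY library, and CSF1R, the receptor of macrophage colony-stimulating factor, fell with INDY from 4.12 to 2.35 CPM. Over the 7 blood markers, of which 4 reached a mean of 1 CPM with INDY and 3 in each other group, sums lay at 49.8 to 56.6 CPM in water libraries, 28.6 to 31.3 CPM in harmine libraries, 50.3 to 51.4 CPM in DMSO libraries and 34.4 to 45.5 CPM in INDY libraries. Their part in the MMP9 result was not tested.

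MMP14 encodes a metalloproteinase anchored in the cell membrane that cuts collagen around the cell (chr14:22836560-22849041, plus strand). It was at 217, 252, 250 and 214 CPM with water and at 293, 296, 282 and 295 CPM with harmine, without overlap. Water libraries 1 and 4 were the low ones. The log2 fold change was 0.32 ± 0.05 SE (adjusted p = 3.89e-05), and 0.20 without water libraries 1 and 4 (adjusted p = 0.00201). With INDY, MMP14 went from 235, 251, 248 and 251 CPM to 122, 135, 116 and 131 CPM. INDY libraries were all well below, and MMP14 fell by 0.97 on the log2 scale, or 1.95-fold (adjusted p = 9.7e-12).

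**Figure D2:**
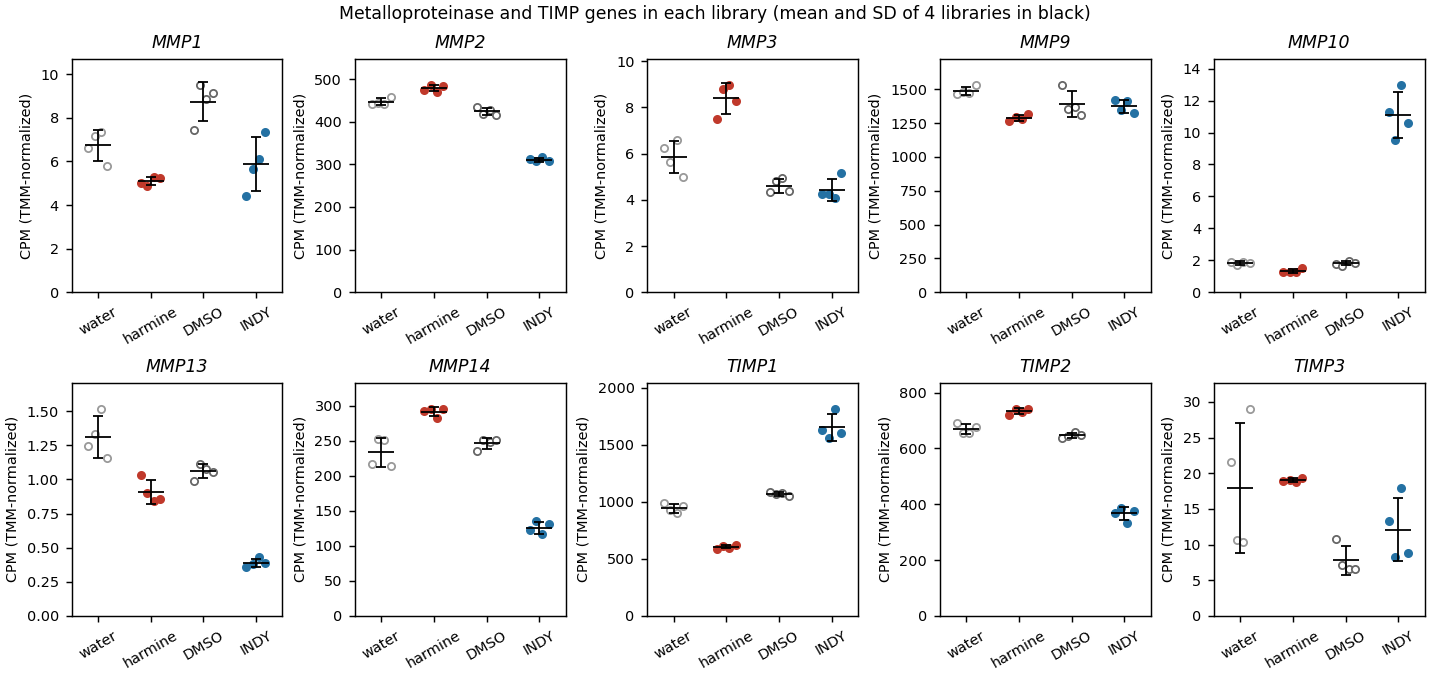
TMM-normalized CPM of each gene (y axis from 0) in the 4 libraries of each group, with mean and SD in black. MMP10 with INDY (9.52 to 13.0 CPM) stands apart from the other groups (1.26 to 1.99 CPM), TIMP1 moves down with harmine and up with INDY, and the water libraries of TIMP3 are spread from 10.3 to 29.1 CPM.

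Of the inhibitors, TIMP1, a broad inhibitor of secreted metalloproteinases, was lower with harmine and higher with INDY. TIMP1 (chrX:47582408-47586789, plus strand) lies within SYN1, a gene on the other strand, and shares no exonic bases with it. It was at 990, 924, 902 and 958 CPM with water and at 590, 615, 596 and 624 CPM with harmine, without overlap. It was at 1087, 1067, 1073 and 1047 CPM with DMSO and at 1630, 1557, 1816 and 1598 CPM with INDY, again without overlap. TIMP1 was 1.56-fold lower with harmine (log2 -0.64 ± 0.04 SE, adjusted p = 2.02e-10) and 1.54-fold higher with INDY (log2 0.63 ± 0.04 SE, adjusted p = 6.63e-11).

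TIMP2, the inhibitor that also binds MMP14 and the MMP2 precursor, moved the other way (chr17:78852977-78925387, minus strand). It was at 691, 657, 654 and 676 CPM with water and at 720, 743, 731 and 743 CPM with harmine. The groups did not overlap, but the log2 fold change was only 0.13 ± 0.04 SE (adjusted p = 0.00339). This call was lost without water library 2 or 3 or harmine library 2 or 4 (adjusted p 0.0111 to 0.0127) and when no genes were filtered out (adjusted p = 0.0106). With INDY, TIMP2 went from 637, 644, 658 and 648 CPM to 369, 388, 334 and 376 CPM. It fell by 0.82 on the log2 scale, or 1.76-fold, with no overlap (adjusted p = 3.27e-13).

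TIMP3 encodes the inhibitor that stays bound to the matrix and also inhibits ADAM proteases (chr22:32801705-32863041, plus strand, within SYN3 on the other strand). It was at 21.6, 10.7, 10.3 and 29.1 CPM in water libraries 1 to 4 and at 18.9, 19.0, 18.8 and 19.4 CPM in harmine libraries. It was at 10.8, 7.14, 6.57 and 6.54 CPM with DMSO and at 13.3, 8.31, 17.9 and 8.87 CPM with INDY. The water libraries set apart above, 1 and 4, were the high ones, as were INDY libraries 1 and 3, while the harmine libraries lay close together. No change was called with harmine (log2 0.09, interval -0.48 to 0.67, adjusted p = 0.787) or with INDY (log2 0.64, interval 0.01 to 1.27, adjusted p = 0.0619). TIMP3 was called higher with harmine when water libraries 1 and 4 were left out (log2 0.84, adjusted p = 0.00673), while the value turned negative without water library 2 (-0.09) or 3 (-0.10). Without INDY libraries 1 and 3, the INDY value was 0.13.

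The effects of the compounds were compared by testing their difference in the same fit, with the limit that doses (10 and 25 µM) and vehicles differed. Of the 10 genes, 3 had a more positive effect with INDY (MMP9, MMP10 and TIMP1) and 5 a more negative one (MMP2, MMP3, MMP13, MMP14 and TIMP2), where 54.5% of all genes tested differed, 26.4% more positive and 28.1% more negative. The difference was 3.06 on the log2 scale for MMP10 (SE 0.15, adjusted p = 6.02e-12) and 1.27 for TIMP1 (SE 0.06, adjusted p = 1.89e-12). It was -1.29 for MMP14, -0.95 for TIMP2, -0.90 for MMP13, -0.58 for MMP3 and -0.55 for MMP2, with adjusted p from 1.69e-11 to 0.000868. For MMP9 it was 0.19 (adjusted p = 0.00503), a call lost without any of water library 4, harmine libraries 1 and 3, DMSO libraries 2, 3 and 4 and INDY library 1 (adjusted p 0.0104 to 0.0135), and also without both water libraries 1 and 4 (0.0101) or both INDY libraries 1 and 3 (0.0308). For MMP1 the interval of the difference ran from -0.51 to 0.18 (adjusted p = 0.393), and for TIMP3 from -0.31 to 1.40 (adjusted p = 0.251).

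The mock-treated groups give the background. Between DMSO and water, TIMP1 alone of the 10 genes was called, and 4.29% of all genes tested were, 1.58% higher and 2.71% lower. Libraries of these groups did not overlap for MMP1 and TIMP1, which were above with DMSO, and for MMP2, MMP3 and MMP13, which were below, while 19.9% of all genes did not overlap, 9.76% above and 10.2% below. The differences that were not called could be large beside the harmine changes, and for MMP1 also beside the INDY change. On the log2 scale, DMSO against water was 0.37 for MMP1, -0.35 for MMP3, -0.31 for MMP13 and -0.07 for MMP2. Harmine against water was -0.40, 0.52, -0.54 and 0.10 for these genes in the same order. INDY against DMSO was -0.57, -0.06, -1.43 and -0.45. The INDY libraries of MMP1 (4.40 to 7.37 CPM) overlapped its water libraries (5.80 to 7.35 CPM). TIMP1 was higher with DMSO by 0.18 on the log2 scale (adjusted p = 0.00753), less than its change with either compound. This call held when water library 1 was left out (adjusted p = 0.0093) and was lost when any other of these 8 libraries was (adjusted p 0.0171 to 0.0249), or without both water libraries 1 and 4 (0.019). TIMP3 was at a lower mean with DMSO than with water (7.76 ± 2.04 against 17.9 ± 9.09 CPM, SD, n = 4), with overlapping libraries. Its log2 difference of -1.19 was not called in edgeR (adjusted p = 0.0138), was called in DESeq2 (adjusted p = 0.00623) and without water library 2 (0.00509) or 3 (0.00397), and was -0.42 without water libraries 1 and 4 (adjusted p = 0.463).

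Levels were compared between genes per kilobase of transcript. In water-treated cells the order was TIMP1 (1227 CPM per kb), MMP9 (637), TIMP2 (183), MMP2 (127), MMP14 (63.0), TIMP3 (3.90), MMP1 (3.42), MMP3 (3.21), MMP10 (1.04) and MMP13 (0.484). Neighbours in this order did not overlap, apart from TIMP3, MMP1 and MMP3. The first 5 kept their places in each group. In harmine libraries MMP3 (4.60 CPM per kb) came next, where it overlapped TIMP3. In DMSO libraries the next places went to MMP1 (4.44), MMP3 (2.53), TIMP3 (1.69), MMP10 (1.03) and MMP13 (0.390). These places thus also differed between the mock-treated groups. With INDY, MMP10 (6.31) came next, above MMP1, TIMP3 and MMP3, which overlapped in turn.

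**Figure D3:**
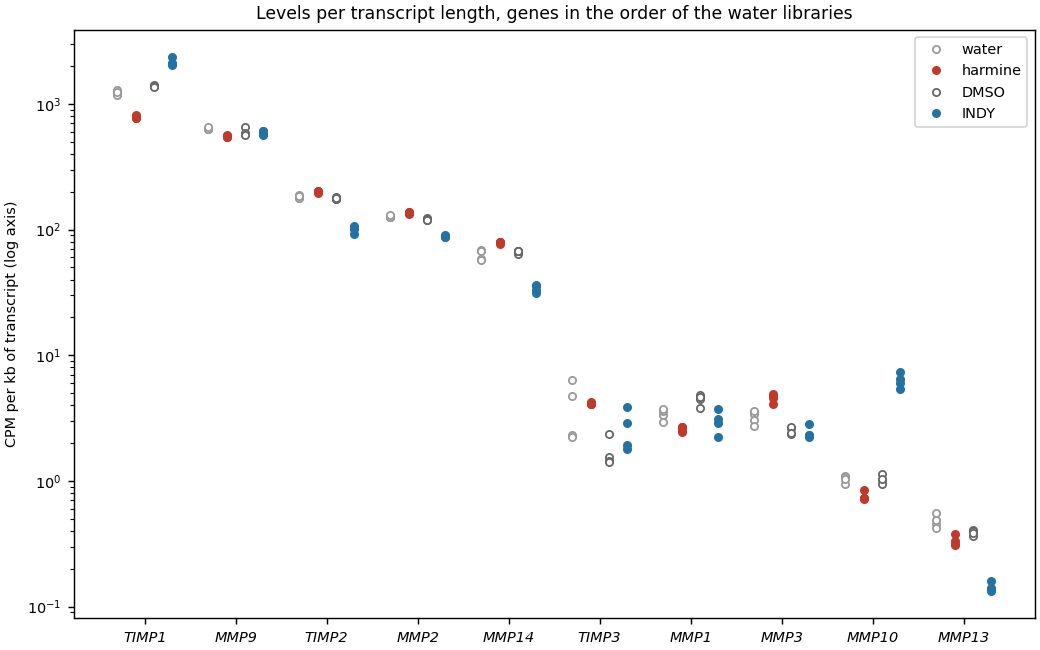
Level of each gene in CPM per kb of transcript (log axis) in each library of the 4 groups, with genes in the order of the water libraries. The 5 genes on the left, from TIMP1 (1227 CPM per kb with water) to MMP14 (63.0), lie above the other 5, and MMP10 leaves its place near 1 only with INDY (6.31).

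The level of a metalloproteinase mRNA against that of an inhibitor was taken per length in each library, as a description of mRNA and not of protein or enzyme activity. The summed level of the 7 metalloproteinase genes over that of the 3 TIMP genes was 0.591 ± 0.0271 in water libraries and 0.781 ± 0.00682 in harmine libraries, and 0.505 ± 0.0202 in DMSO libraries and 0.322 ± 0.0152 in INDY libraries (SD, n = 4 each). Every harmine library (0.775 to 0.790) was above every water library (0.554 to 0.616). Every INDY library (0.301 to 0.334) was below every DMSO library (0.491 to 0.535). The mock-treated groups did not overlap in this ratio either, with every water library above every DMSO library. TIMP1 held 86.8% of the summed TIMP level in water libraries, 79.4% in harmine, 88.6% in DMSO and 95.4% in INDY libraries. MMP9 held 76.3%, 71.2%, 75.2% and 81.4% of the summed metalloproteinase level in the same order, so these genes made up most of each sum. MMP9 itself was at about the same level with DMSO and INDY (596 and 589 CPM per kb). MMP2 (121 and 88.6) and MMP14 (66.5 and 34.0) were lower with INDY.

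Among 5 gene pairs, MMP3 over TIMP1 shifted most with harmine, from 0.00263 ± 0.000366 with water to 0.00584 ± 0.000436. It was 0.00182 ± 0.000122 with DMSO against 0.00114 ± 0.000169 with INDY. The water (0.00219 to 0.00308) and DMSO (0.00168 to 0.00194) libraries of this pair did not overlap either. MMP1 over TIMP1 was 0.00320 with DMSO and 0.00140 with INDY, without overlap, and overlapped between water and harmine. MMP2 over TIMP2 overlapped between water (0.694 ± 0.0197) and harmine (0.678 ± 0.00794). It was higher with INDY (0.885 ± 0.0719) than with DMSO (0.682 ± 0.0182), without overlap, although both genes were lower with INDY. MMP14 over TIMP2 was higher in every harmine library (0.382 to 0.401) than in any water library (0.310 to 0.379), of which 1 and 4 were the low ones, and lower in every INDY library (0.326 to 0.344) than in any DMSO library (0.364 to 0.384). MMP13 over TIMP3 was 0.243 with DMSO and 0.0593 with INDY, and its water libraries ran from 0.0674 to 0.249.

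**Figure D4:**
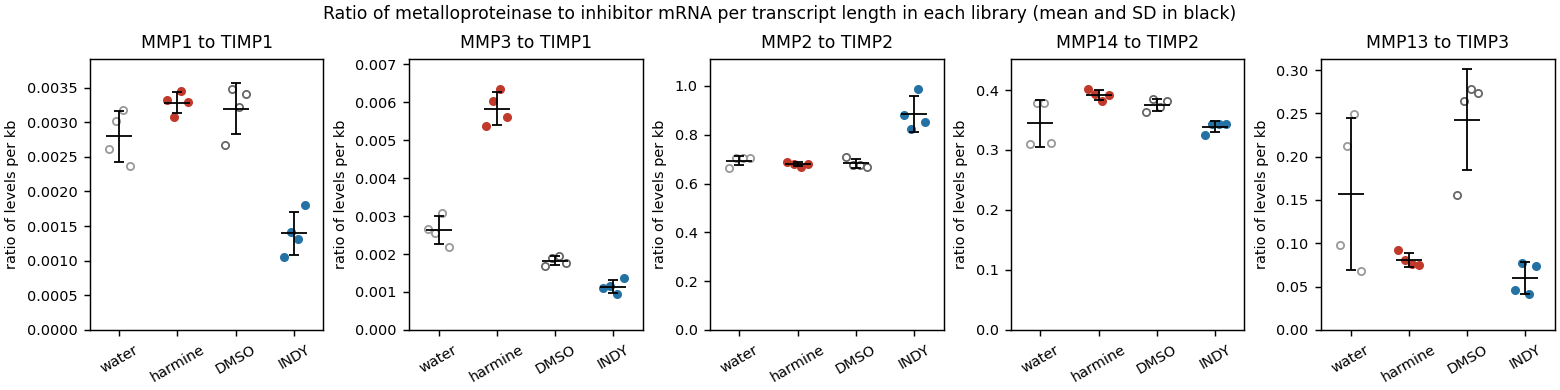
Ratio of metalloproteinase to inhibitor mRNA per transcript length (y axes from 0, each panel with its own scale) in the libraries of the 4 groups, with mean and SD in black. MMP3 to TIMP1 is highest with harmine (mean 0.00584), MMP1 to TIMP1 lowest with INDY (0.00140), and MMP2 to TIMP2 highest with INDY (0.885).

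Across the 16 libraries, which share 4 groups, TIMP2 followed MMP2 (Pearson r of log2 CPM 0.981) and MMP14 (0.976), and MMP14 followed MMP2 (0.961), as a description. TIMP2 and MMP10 ran opposite to each other (-0.993), and TIMP1 ran opposite to MMP14 (-0.913). Of 13182 genes, the one most like MMP14 was COL4A2, a chain of basement membrane collagen (r = 0.999, and 0.974 of the deviations within groups). In water libraries 1 to 4, COL4A2 was at 1713, 2092, 2076 and 1717 CPM, with the same libraries low as for MMP14, and its log2 fold change with harmine was 0.52, or 0.37 without these (adjusted p = 0.000105). MMP7, the metalloproteinase matrilysin, was the next most like MMP14 (r = 0.996) and was called higher with harmine (8.89 to 16.4 CPM) and lower with INDY (9.41 to 1.21 CPM). Its water libraries 1 and 4 (7.33 and 6.01 CPM) were below 2 and 3, and without 1 and 4 its log2 fold change with harmine went from 0.87 to 0.54 (adjusted p = 0.00595).

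For the other genes apart from TIMP3, the ones most like them were RCN3 for MMP1 (0.927), PKP4 for MMP2 (0.995), SUGCT for MMP3 (0.951), SCN9A for MMP9 (0.931), CORO2B for MMP10 (0.994), C3AR1 for MMP13 (0.985), MAP2K3 for TIMP1 (0.994) and F13A1 for TIMP2 (0.997). The r of the deviations within groups was lower, at 0.669, 0.665, 0.490, 0.772, 0.615, 0.418, 0.679 and 0.806 in the same order. The r over all libraries thus came largely from differences between groups.

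The counts of the following lists stand beside the shares of all genes tested given above, 24.9% higher and 22.8% lower under harmine and 33.2% and 33.4% under INDY, and nothing particular to a list is read from them. Of 16 other metalloproteinase genes, 8 were tested. With harmine 3 rose and 3 fell, and with INDY 1 rose and 5 fell, with median log2 fold changes of -0.07 and -0.90. MMP7 had changes of 0.87 and -2.97 on the log2 scale with harmine and INDY. MMP17, anchored in the membrane, fell by 1.45 with INDY, and MMP24 fell by 0.92 with harmine and by 2.33 with INDY. MMP24 was also called higher with DMSO than with water (log2 0.58, adjusted p = 0.0057). MMP25 fell by 1.48 with harmine, from 0.917 to 0.325 CPM, a low level. Of 8 other inhibitors, 6 were tested, of which 2 rose and 4 fell with harmine, and 0 rose and 3 fell with INDY (medians -0.31 and -0.22). TFPI2, a serine protease inhibitor of the matrix, fell with harmine from 12.6 to 4.92 CPM (log2 -1.35, adjusted p = 2.45e-11). With INDY, A2M, the broad protease inhibitor alpha-2-macroglobulin, fell by 0.61 and the proteoglycan gene SPOCK1 by 0.37, and SPOCK3 fell by 0.97 with harmine and by 1.02 with INDY, while SPOCK2 fell by 0.52 with harmine. Without water libraries 1 and 4, the harmine call of SPOCK3 was lost (adjusted p = 0.0247), and 1 of these inhibitors rose and 2 fell. No other gene named from these lists lost its call without these libraries or, with INDY, without INDY libraries 1 and 3.

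Of 10 genes for activators, docking partners and clearance receptors, 9 were tested, of which 4 rose and 3 fell with harmine, and 2 rose and 3 fell with INDY (medians 0.11 and 0.01), or 3 and 4 without INDY libraries 1 and 3. ITGB3, the integrin chain of the vitronectin receptor, rose with harmine from 17.5 to 52.2 CPM (log2 1.58 ± 0.06 SE, adjusted p = 5.07e-13), while its partner chain ITGAV fell by 0.54. PCSK5, a proprotein convertase, rose by 1.28 with harmine. With INDY, the convertase gene PCSK6 fell by 1.69, the clearance receptor gene LRP1 by 0.86 and ITGAV by 0.47, and the tight junction gene CLDN1 rose by 0.93 and BSG, an inducer of metalloproteinases, by 0.19.

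In the plasminogen system, whose product plasmin can activate metalloproteinase precursors, 9 of 11 genes were tested. With harmine 4 rose and 2 fell, and with INDY 2 rose and 5 fell (medians 0.23 and -0.38). With harmine, the urokinase receptor gene PLAUR fell by 0.59 (54.2 to 35.9 CPM), while SERPINE2, an inhibitor of serine proteases, rose by 0.57 (135 to 200 CPM). With INDY, the activator genes PLAT and PLAU fell by 1.07 and 0.93, and the plasminogen receptor gene PLGRKT by 0.68.

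Of 15 matrix substrate genes, 13 were tested, of which 5 rose and 5 fell with harmine, and 1 rose and 8 fell with INDY (medians 0.26 and -0.44), where 33.4% of all genes fell. FN1, which encodes fibronectin, rose with harmine from 1009 to 1878 CPM (log2 0.90) and fell with INDY from 890 to 310 CPM (log2 -1.52, adjusted p = 1.36e-10). COL4A2 and COL4A1 fell by 1.48 and 0.83 with INDY. SPP1 fell by 0.82 with harmine, from 2.26 to 1.28 CPM. COL3A1 fell by 1.30 with harmine, from 1.20 to 0.491 CPM, a low level (log2 -1.08 without water libraries 1 and 4). Its mean with DMSO, 0.532 CPM, was close to that with harmine, so the mock-treated groups differed about as much.

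Of 21 genes for AP-1, ETS and other factors known at metalloproteinase promoters, 20 were tested, of which 4 rose and 6 fell with harmine, and 11 rose and 3 fell with INDY (medians -0.05 and 0.20). In either direction that was 10 and 14 of 20, beside 47.7% and 66.6% of all genes. EGR1, an early response factor, was lower with harmine (95.3 to 43.6 CPM, log2 -1.13) and higher with INDY (126 to 215 CPM, log2 0.77). FOS, an AP-1 subunit, fell by 0.76 with harmine and SMAD3, which carries TGF-beta signals, by 0.62. With INDY, ATF3, a stress response factor, rose from 19.4 to 52.1 CPM (log2 1.43 ± 0.07 SE, adjusted p = 9.06e-13), and ELF3, at 0.183 CPM with DMSO, rose to 0.607 CPM.

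**Figure D5:**
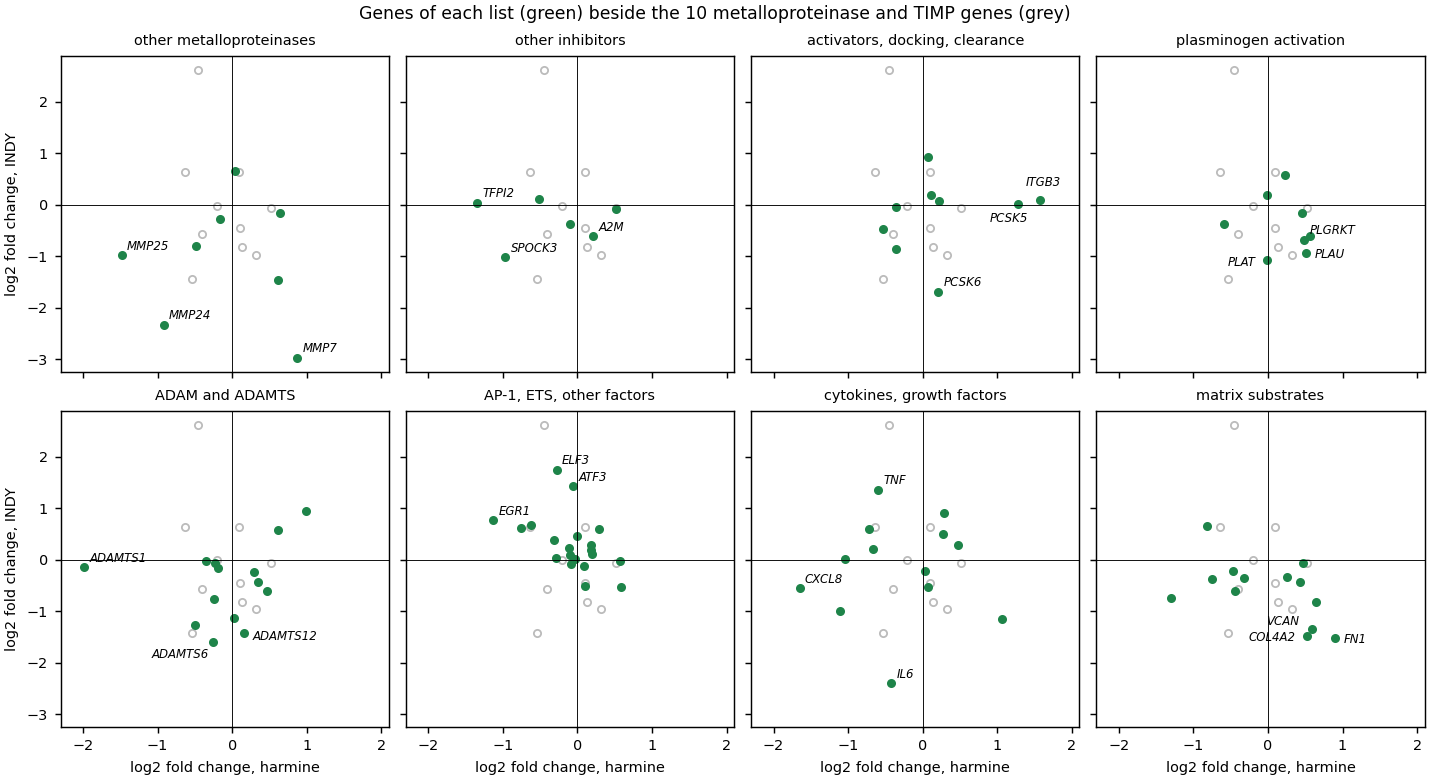
Log2 fold change with harmine (x axis) and INDY (y axis) for tested genes of 8 lists (green, with 1 gene of the plasminogen list not shown and the 3 shown with the largest change in each list named, whether or not they passed the test) and the 10 metalloproteinase and TIMP genes (grey). FN1 and COL4A2 lie at the lower right, where MMP7 (0.87 and -2.97) also lies, and EGR1 (-1.13 and 0.77) lies at the upper left.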

How the data were processed

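RNA selected for poly(A) from 16 U2OS libraries was sequenced from a stranded kit. Groups and replicate numbers came from the sample titles. The deposited values are estimated counts. The authors obtained them with Salmon 1.1 on GENCODE transcripts (GRCh38) and tximport, and edgeR 3.28.1 is named in the processing notes of the submitters. Whether strand entered the counting is not given in the sources used here. In each library 27.7 to 31.9% of values were not whole (tolerance 1e-06). Reads were not reprocessed.

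Estimated counts were rounded. Genes that passed filterByExpr were tested with edgeR 4.0.16 in R 4.3.3 (TMM, glmQLFit, glmQLFTest, 1 model of the 4 groups), with Benjamini-Hochberg adjustment over the 20446 genes tested and a threshold of 0.01. CPM are TMM-normalized, log2 CPM has a prior count of 2, and SE is of the log2 fold change. Levels per kb used the length of the MANE Select or canonical transcript. Totals of 44301642 to 65889487 counts set the precision, with a common biological coefficient of variation of 0.0561. The fit was tested on simulated counts. No source states whether replicates were separate cultures. The p-values therefore refer to differences among libraries that may be technical. No pair of replicates agreed within sampling noise (chi-square per degree of freedom 2.16 to 27.0 over 24 pairs).

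All 10 genes are named. Other lists are given by counts and medians, with the 3 largest changes per list and compound among those that passed, and every gene where 5 or fewer passed. Some genes that these rules name are not reported here. The members and lists were chosen with earlier results of these data known. Likeness was searched over genes with a mean log2 CPM of at least 1, giving the 3 genes of highest r, of which the text names 1 or more. Alternatives were DESeq2 1.42.0, limma voom 3.58.1, upper-quartile factors, no filter or a minimum of 10 counts per library, a threshold of 0.05, calls of 1.5-fold or more, a fit of the 8 libraries of a comparison alone, a replicate block, and leaving out each library in turn. Leaving out water libraries 1 and 4, or INDY libraries 1 and 3, was chosen after seeing the data.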

Additional observations from a re-analysis of the deposited data

Results flagged for a closer look

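Over the 10 genes and 4 groups, 40 sets of 4 libraries were searched for a library far from the other 3, and 4 were found, where chance gives about 1 in 20 such sets. They were MMP2 in water library 4 (459 CPM), MMP3 in INDY library 4 (5.15 CPM), MMP10 in harmine library 4 (1.49 CPM) and TIMP3 in DMSO library 1 (10.8 CPM). The MMP2, MMP3, MMP10 and TIMP3 values were each the highest of their group. The TIMP3 value lay within the range of the water libraries (10.3 to 29.1 CPM), and DMSO library 1 was also the highest of its group for MMP9 (1531 CPM).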

How the results depend on the processing

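Of the log2 fold changes of the 10 genes under all alternatives, 152 of harmine, 167 of INDY, 240 of the difference and 146 of DMSO against water kept both direction and side of the threshold. Calls were lost in 15, 0, 9 and 9 and gained in 1, 0, 0 and 9. Values that turned sign were all of changes that were not called: TIMP3 with harmine (-0.090 and -0.10 without water library 2 or 3, and -0.10 to 0.44 over the libraries left out), MMP3 with INDY (0.023 without INDY libraries 1 and 3), MMP9 with INDY (0.032 without DMSO library 1, 0.0021 without INDY library 4, range -0.044 to 0.032), the TIMP3 difference (-0.20 without water libraries 1 and 4), and, between the mock-treated groups, MMP10 (0.018, 0.0092, 0.0045 and 0.032 in a range of -0.052 to 0.032, and 0.037 without water libraries 1 and 4) and MMP14 (-0.028 without these). The causes were not tested.

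At a fold change of at least 1.5, none of the 10 genes was higher and 1 lower with harmine (0 and 1), 3 were lower with INDY and 3 in the difference, and 0 were higher with DMSO against water. All genes called were then 1720 higher and 1615 lower with harmine, 2914 and 3975 with INDY, 2446 and 3511 in the difference, and 23 and 138 for DMSO against water. Without a filter, 2 of the 10 were higher with harmine and 1 lower with DMSO against water. For DMSO against water, DESeq2 called 715 genes higher and 877 lower and 2 of the 10 lower, an adjusted p under 0.05 gave 1058 and 1326 genes and 2 and 2 of the 10, and leaving out water libraries 1 and 4 gave 15 and 106 genes and 0 of the 10 higher.

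Leaving out 1 library at a time gave 4560 to 4768 genes higher and 4138 to 4381 lower with harmine (3 to 4 and 4 to 5 of the 10), 6461 to 6751 and 6500 to 6705 with INDY (2 and 5), 5091 to 5639 and 5461 to 5710 in the difference (2 to 3 and 5), and 87 to 385 and 243 to 646 for DMSO against water (0 to 1 each).

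Equal replicate numbers did not pair the water and harmine libraries (r of deviations -0.0527 to -0.00662), of which 0 of 8 correlated best with their own number. For DMSO and INDY r was -0.0193 to 0.0868, with 5 of 8 best with their own number. For water and DMSO it was -0.0122 to 0.0727, with 4 of 8. These small values do not settle whether the DMSO libraries were weakly paired with the others. With a replicate block, 4 and 5 of the 10 were called with harmine, 2 and 5 with INDY, 3 and 5 in the difference and 0 higher for DMSO against water, where TIMP1 was lost (adjusted p = 0.0138). Low counts limit MMP13 and MMP10.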

Other observations

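ADAM and ADAMTS proteases are relatives of the metalloproteinases that shed cell surface proteins or cut proteoglycans. Of 17 such genes, 14 were tested, of which 5 rose and 6 fell with harmine, and 2 rose and 8 fell with INDY (medians -0.08 and -0.34). Of all genes tested, 24.9% were higher and 22.8% lower under harmine, and 33.2% and 33.4% under INDY. ADAM8 rose with harmine from 2.60 to 5.16 CPM (log2 0.99 ± 0.09 SE, adjusted p = 4.19e-08), ADAMTS15 rose by 0.61, and ADAMTS1 fell from 0.409 to 0.0997 CPM. With INDY, ADAMTS12 fell from 138 to 51.2 CPM (log2 -1.43), ADAM15 from 135 to 56.0 CPM (-1.27) and ADAMTS6 from 28.5 to 9.46 CPM (-1.60).

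Of 15 genes for cytokines and growth factors, 13 were tested, of which 4 rose and 5 fell with harmine, and 5 rose and 6 fell with INDY (medians -0.42 and 0.01), beside the same shares of all genes. With harmine, the chemokine gene CXCL8 fell from 6.19 to 1.97 CPM (log2 -1.65 ± 0.10 SE, adjusted p = 1.23e-10) and EGF fell from 2.74 to 1.27 CPM. TGFB2 was higher with harmine (21.7 to 45.2 CPM) and lower with INDY (18.5 to 8.36 CPM). With INDY, IL6 fell from 0.475 to 0.0910 CPM and TNF rose from 0.128 to 0.334 CPM, both at low levels.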
